A study of Homo sapiens with 8 samples.

Results

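The genes described here encode the proteins of the mitochondrial ribosome, taken as every gene of the HT29 expression table whose symbol is MRPL or MRPS followed by a number and at most 1 letter from A to C. The rule used names only and no measured value, and it took 78 of the 38148 genes in the table, 49 named MRPL and 29 named MRPS. All 78 passed the filter of a mean of 1 RPM (a reads-per-million value) and were tested among 14219 genes. HT29 is an established human colorectal cancer line that carries an activating BRAF mutation, and the study asked how such cells express genes when they pass through the cell cycle during inhibition of MEK, the kinase that activates ERK1/2. Selumetinib is a MEK inhibitor.

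The mitochondrial ribosome, or mitoribosome, translates the few mRNAs that the mitochondrial genome encodes, all of them for subunits of the respiratory chain and the ATP synthase. Its ribosomal RNAs are made inside the organelle, whereas all of its proteins are encoded by nuclear genes, translated in the cytosol and imported. Many of these proteins descend from bacterial ribosomal proteins, and others were added during the evolution of mitochondria. By structure, 51 of the 78 genes encode proteins of the large subunit and 26 of the small subunit, counting MRPS18A and MRPS30 in the large subunit, where their proteins sit. MRPS36 is counted in neither, since its product is a component of the 2-oxoglutarate dehydrogenase complex. Homologues of bacterial ribosomal proteins accounted for 48 of the genes and mitochondria-specific proteins for the other 30, among which MRPS36 is counted.

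The 4 groups were untreated or selumetinib-treated HT29 cells (1 µM for 24 h), each fixed in glyoxal, stained for cyclin B1 (CCNB1, a protein that accumulates in G2) and sorted into a CCNB1-negative and a CCNB1-positive fraction, with 2 mRNA-seq libraries per group. Nothing in the labels says that the 2 libraries of a group came from separate cultures, so p-values measure only the spread between these libraries. In every library, title and description contradict each other on treatment as well as on fraction, and the label for the growth medium sides with the title on treatment. The groups here follow the descriptions, which also name the columns of the table. Under the titles, each response given here for one fraction would belong to the other fraction with its sign reversed, the differences between fractions would swap between untreated and treated cells with their signs reversed, and the difference of the responses would be unchanged. With the groups as described, CCNB1 mRNA stood at 135 and 172 RPM in the untreated CCNB1-negative libraries and at 591 and 711 RPM in the untreated CCNB1-positive ones. In selumetinib it stood at 10.1 and 6.24 RPM in the negative fraction and at 290.2 and 247.9 RPM in the positive. Of 10 genes known to follow ERK1/2 activity, 9 were lower and 1, EPHA4, was higher in the libraries described as selumetinib-treated, in both fractions.

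Gene reads per library ranged from 12696860 to 23916160, and reads per member per library from 118 to 6663. In bulk libraries, fewer cells of a kind and less RNA per cell cannot be told apart. All 9 genes of a colon epithelium list passed the filter, and they moved in both directions with treatment: 3 were lower and 2 higher in CCNB1-negative cells, and 1 lower and 3 higher in CCNB1-positive cells. Their sum, made up mostly of KRT8 and KRT18, was 12004 and 11012 RPM untreated and 6969 and 4879 RPM treated in the negative fraction, and 10768 and 11063 RPM against 8612 and 6461 RPM in the positive. Of 7 genes that mark leukocytes, macrophages, mesenchyme and endothelium 2 passed the filter, CD68 and COL1A1, and COL1A1 was higher in both responses (log2 fold changes 1.81 and 2.19). These 7 summed to 9.02 and 7.58 RPM untreated and 9.38 and 7.02 RPM treated in the negative fraction, and to 7.11 and 8.24 RPM against 16.6 and 11.1 RPM in the positive. Other RNA moved with the treatment, and its part in the results was not tested beyond the scaling given with them: MALAT1, a nuclear non-coding RNA, stood between 3051 and 3900 RPM in untreated and between 18896 and 39771 RPM in treated libraries. The 13 mitochondrially encoded mRNAs summed to between 44718 and 77629 RPM in untreated libraries and to between 110727 and 135727 RPM in treated ones.

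In untreated cells the members spanned a wide range of levels. Per kilobase of the main annotated transcript (the MANE Select transcript in GENCODE 44), the mean level over the 4 untreated libraries had a median of 63.3 RPM per kb over the 78 genes. The highest were MRPL12, with 270.0 RPM per kb and a range over libraries of 239 to 302, MRPL20 with 261 (223 to 287) and MRPL51 with 242 (199 to 264). These 3 ranges overlap, so their order is not resolved. Each of the 3 shares exon sequence with another gene of the table, namely AC139530.3, MRPL20-AS1 and NCAPD2 in that order. The part of shared reads in these levels was not tested. MRPL12 protein belongs to the stalk of the large subunit and also binds the mitochondrial RNA polymerase. The lowest were MRPS14 with 11.3 RPM per kb (9.55 to 13.7), MRPL19 with 9.47 (7.94 to 11.5) and MRPL42 with 4.90 (4.44 to 5.64). The ranges of MRPS14 and MRPL19 overlap, and that of MRPL42 lies below both. The annotated transcript of MRPL42 is 15557 bases long, so its value per kilobase depends on whether HT29 cells use that transcript.

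Mitoribosome genes were lower in selumetinib in CCNB1-negative cells, almost without exception. Of 78 members, 76 passed the test as lower and 0 as higher, where 35.8% of all genes tested were lower and 38.2% higher. The unadjusted p was under 0.05 for the same number, 76, and limma-voom on reads called 73. Summed over members, the level was 6585 and 7877 RPM in the untreated libraries and 3105 and 2759 RPM in the treated ones, a difference of -1.299 on the log2 scale, or 2.46-fold. The median log2 fold change was -1.35, and -1.40 relative to the median of all genes, which was 0.05. The members lay close together: the interquartile range ran from -1.68 to -0.89, a width of 0.79, against a width of 1.93 for all genes tested. Both treated libraries lay below both untreated ones for 77 members, where 41.9% of all genes did so, and above for 0, where 44.6% did. The fall was past 2-fold for 55 members and past 4-fold for 7.

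**Figure D1:**
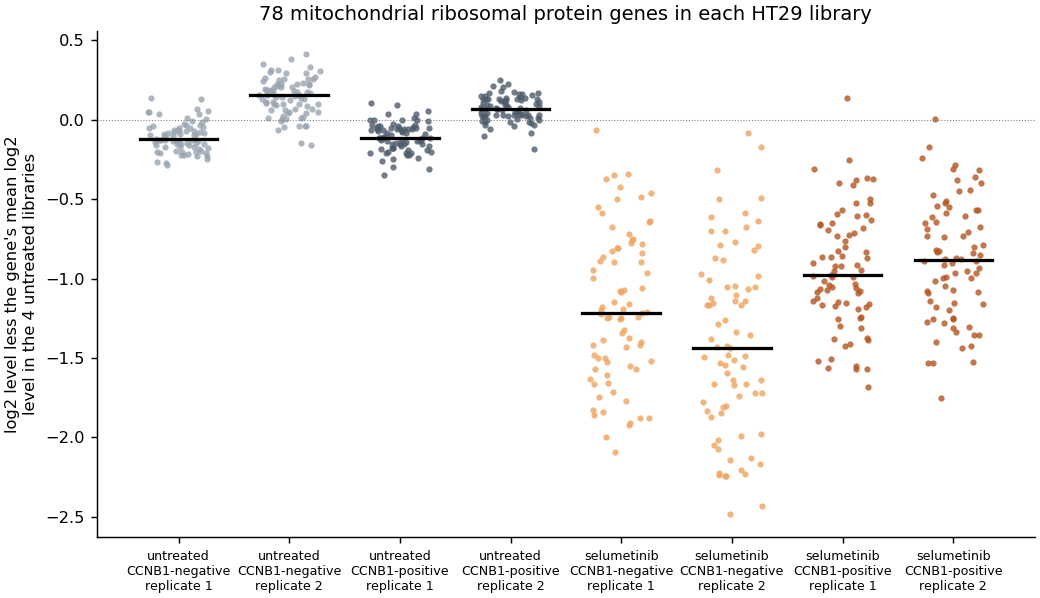
Each point is 1 of the 78 genes in 1 library; the vertical axis is its log2 level less its own mean log2 level over the 4 untreated libraries, and bars are medians over genes. Points of the untreated libraries lie near 0 and nearly all points of the treated libraries lie below, lowest in the CCNB1-negative fraction.

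The largest fall was that of MRPL39 (ENSG00000154719, GRCh38 chr21:25585656-25607517, minus strand), a mitochondria-specific large subunit protein. It stood at 42.2 and 54.6 RPM in untreated CCNB1-negative libraries and at 12.3 and 8.36 RPM in treated ones. Treated and untreated libraries were far apart, and the log2 fold change was -2.24 ± 0.21 (SE, 2 against 2 libraries; limma with Benjamini-Hochberg adjustment, adjusted p = 3.7e-07). MRPL17 (chr11:6680782-6683401, minus strand) encodes a large subunit protein with a bacterial homologue at the exit of the peptide tunnel. Its level was 138 and 164 RPM untreated and 34.4 and 29.8 RPM treated, a log2 fold change of -2.23 ± 0.16 (limma, adjusted p = 4.3e-08). MRPL18 (chr6:159789812-159798436, plus strand) encodes the mitochondrial relative of the bacterial protein that holds 5S rRNA. It stood at 79.2 and 94.7 RPM untreated against 20.7 and 18.6 RPM treated, a log2 fold change of -2.14 ± 0.15 (limma, adjusted p = 4.0e-08).

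The next 5 falls were of similar size and also concerned large subunit proteins. MRPL15 (64.3 and 84.7 RPM untreated, 20.3 and 13.8 RPM treated) and MRPL13 (208 and 338 RPM untreated, 67.7 and 53.5 RPM treated) both had a log2 fold change of -2.14, with SEs of 0.20 and 0.22. MRPL50, a mitochondria-specific protein, went from 41.96 and 54.9 RPM to 12.9 and 9.36 RPM, and MRPL3, a bacterial-type protein of the subunit core, from 148 and 211 RPM to 46.3 and 38.4 RPM. Their log2 fold changes were -2.13 ± 0.20 and -2.07 ± 0.18. MRPS30, named as a small subunit gene but placed in the large subunit, went from 77.9 and 94.0 RPM to 24.1 and 19.4 RPM, a log2 fold change of -1.98 ± 0.16. In each of these the treated libraries lay well below the untreated ones.

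Only MRPL48 and MRPL53 did not pass the test in CCNB1-negative cells, and both encode mitochondria-specific proteins of the large subunit. MRPL48 stood at 73.5 and 93.7 RPM untreated and at 63.5 and 73.1 RPM treated, a log2 fold change of -0.28 ± 0.16 (limma, adjusted p = 0.11). MRPL53 stood at 28.1 and 32.5 RPM untreated and at 28.4 and 28.1 RPM treated, a log2 fold change of -0.10 ± 0.15 (limma, adjusted p = 0.57). Its treated and untreated libraries overlapped. MRPL53 shares exon sequence on its own strand with CCDC142, which was higher in treated cells (log2 fold change 0.51, adjusted p = 0.0044), and the part of shared reads in the value of MRPL53 was not tested.

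**Figure D2:**
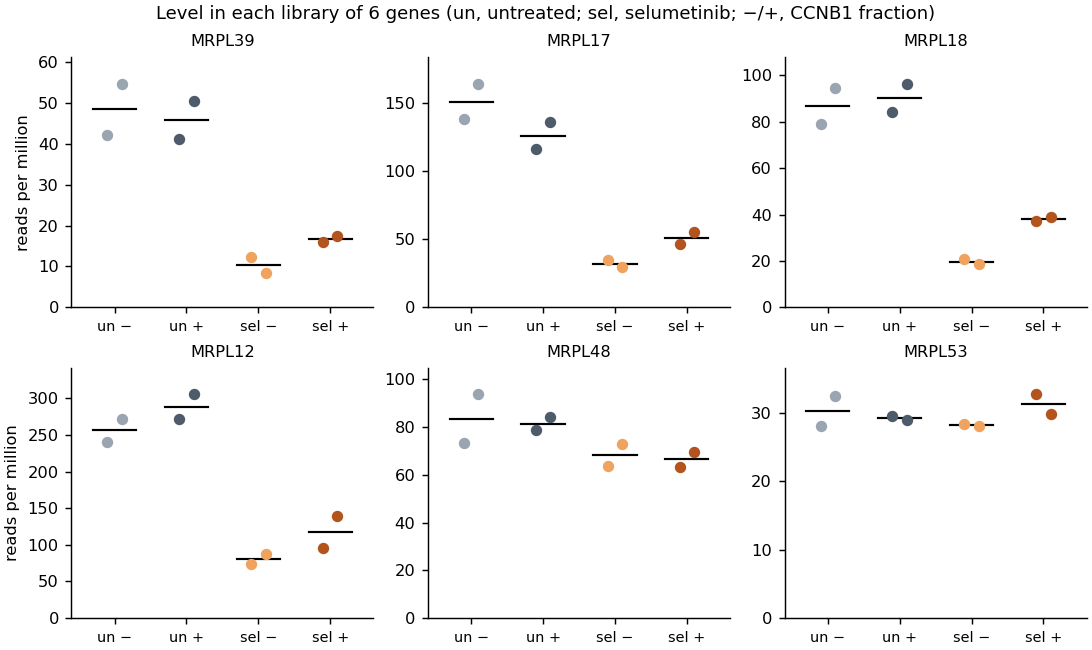
Level in RPM in each of the 8 libraries for MRPL39, MRPL17 and MRPL18, whose falls in CCNB1-negative cells were the largest, MRPL12, the highest per length, and MRPL48 and MRPL53, which did not pass the test; bars are means of 2 libraries and all axes start at 0. The first 4 genes drop in both treated groups, while the treated and untreated libraries of MRPL53 lie between 28.1 and 32.7 RPM.

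Each taken as a whole, both subunits and both origins showed falls of like median size. In CCNB1-negative cells 49 of 51 large subunit genes and 26 of 26 small subunit genes were lower, with median log2 fold changes of -1.36 and -1.35. Among homologues of bacterial proteins 48 of 48 were lower (median -1.36), and among mitochondria-specific genes 28 of 30 (median -1.29). Within the large subunit the medians stood further apart, at -1.47 for the 31 bacterial homologues and -1.11 for the 20 mitochondria-specific genes. In the small subunit they were -1.32 and -1.37. All these medians were compared without a test. The 3 relatives of bacterial protein S18, of which MRPS18C takes the bacterial position, all fell: MRPS18C by 1.70 on the log2 scale (60.4 and 77.6 RPM untreated, 21.9 and 20.3 RPM treated), MRPS18B by 1.39 (79.5 and 86.0 RPM, then 35.2 and 28.4 RPM) and MRPS18A by 0.98 (64.7 and 68.4 RPM, then 37.99 and 30.1 RPM). MRPS18C fell more than MRPS18A in these values, and the difference between the genes was not tested. MRPL12 fell by 1.67 on the log2 scale, from 241 and 272 RPM to 73.9 and 87.3 RPM. It shares exon sequence on its strand with a gene listed as AC139530.3, whose log2 fold change was -1.71. MRPL58, a release factor relative built into the large subunit that frees stalled peptides, fell by 1.10, from 46.0 and 52.6 RPM to 25.3 and 21.0 RPM. MRPS36, not a ribosomal component, fell by 0.88, from 28.4 and 37.4 RPM to 18.4 and 17.01 RPM.

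CCNB1-positive cells showed the same direction with smaller falls. Of 78 members, 70 were lower and 0 higher, where 27.3% of all genes tested were lower and 5400 of the 14219 were higher. The unadjusted p was under 0.05 for 73, and limma-voom on reads called 65. The summed level was 6624 and 7526 RPM untreated and 3633 and 3873 RPM treated, a log2 difference of -0.91, or 1.88-fold. The median log2 fold change was -0.93, and -1.10 relative to the median of all genes of 0.17. Treated libraries lay below untreated ones without overlap for 77 members, where 37.1% of all genes did so, and above for 1, where 48.6% did. The fall was past 2-fold for 33 members. All 70 were also among the 76 that fell in CCNB1-negative cells.

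The order of the responses changed somewhat between the fractions. MRPS23, a mitochondria-specific small subunit protein on chr17:57834781-57850056, had the largest fall in CCNB1-positive cells. It stood at 88.6 and 110.2 RPM untreated and at 31.0 and 29.6 RPM treated, a log2 fold change of -1.71 ± 0.17 (limma, adjusted p = 2.7e-06), and in CCNB1-negative cells it fell by 1.97. MRPL15 followed with -1.56 (68.0 and 83.1 RPM, then 25.2 and 25.8 RPM), MRPL16 with -1.50 (137 and 134 RPM, then 46.6 and 49.3 RPM) and MRPL3 with -1.48 (147 and 173 RPM, then 56.5 and 58.1 RPM). MRPL16, like its bacterial homologue, lies near the peptidyl transferase centre. MRPS30 and MRPL4 both had a log2 fold change of -1.46, MRPL39 of -1.45 and MRPS2 of -1.37, with SEs from 0.14 to 0.21. MRPS2 is a small subunit protein with a bacterial homologue, and stood at 90.6 and 104 RPM untreated and at 36.0 and 39.2 RPM treated. MRPL12 fell by 1.32, MRPS18B by 1.16, MRPS18C by 1.14, MRPL58 by 0.99, MRPS18A by 0.86 and MRPS36 by 0.52 on the log2 scale. The value for MRPS36 lost its call in 6 of 18 alternatives, with adjusted p up to 0.19.

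The test in CCNB1-positive cells was missed by 8 members: MRPL33, MRPL43, MRPL48, MRPL53, MRPL55, MRPS5, MRPS14 and MRPS28. Their log2 fold changes ran from -0.38 to 0.10. MRPL53 was the only one of the 78 whose value was above 0 (29.5 and 28.9 RPM untreated, 32.7 and 29.8 RPM treated). Several of these share exons with genes that moved otherwise. BABAM2, which overlaps MRPL33 on the same strand, had a log2 fold change of 1.61 in this fraction and 2.25 in the negative one, and AC036214.3, a readthrough gene that includes MRPS28, had values of 0.25 and 0.50. Their part in the values of MRPL33 and MRPS28 was not tested. Among the 39 members with no exon shared with another gene of the table, 38 were lower in CCNB1-negative cells (median -1.36) and 36 in CCNB1-positive cells (median -0.96).

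**Figure D3:**
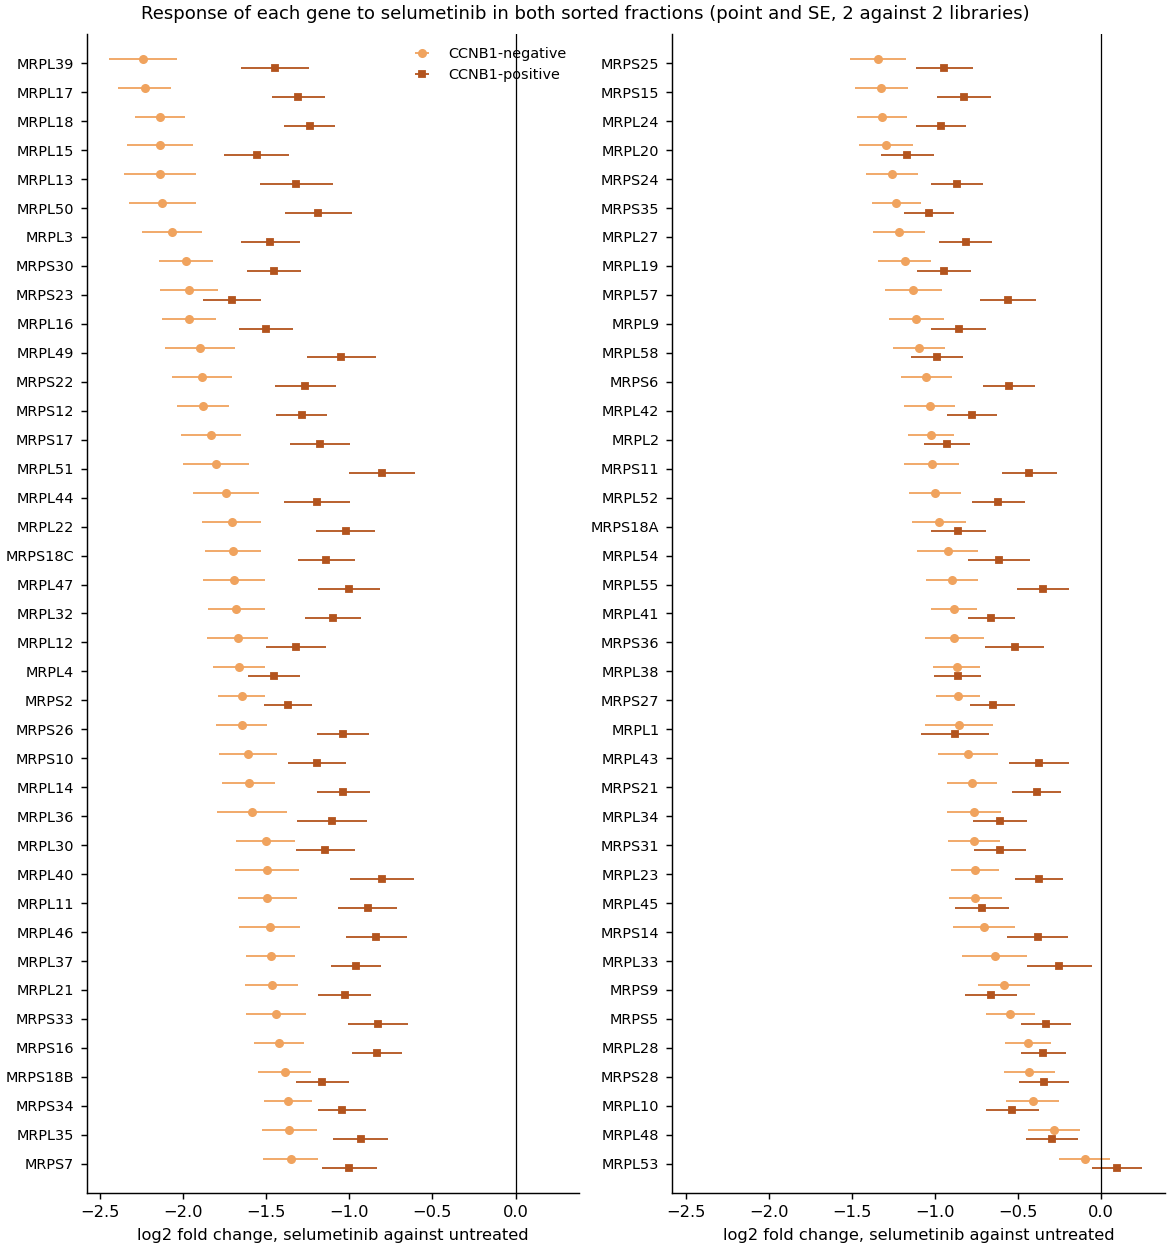
Log2 fold change of each of the 78 genes, selumetinib against untreated, with its standard error, in CCNB1-negative cells (circles) and CCNB1-positive cells (squares), ordered by the response in CCNB1-negative cells and continued in the right panel. Values run from -2.24 to -0.10 in the negative fraction and from -1.71 to 0.10 in the positive, and for 74 genes the circle lies left of the square.

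How far these falls depend on scaling was measured directly. Scaling to nuclear reads without MALAT1 raised the median of all genes to 0.36 in the negative and 0.42 in the positive fraction, so that 69 and 58 members were lower, with medians of -1.03 and -0.68. Quantile normalization gave 73 and 69 lower, and median-of-ratios scaling 76 in both. No member was called higher under any of these. Leaving out 1 library at a time, between 71 and 76 members were lower in the negative fraction and between 61 and 73 in the positive.

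The promoters of the genes with the largest and the smallest responses are shown because the members moved together. RefSeq windows on GRCh38.p14, from 250 bases before to 50 after the first listed start, were found for 69 of the 78 genes, and not for MRPL2, MRPL10, MRPL13, MRPL15, MRPL21, MRPL23, MRPL35, MRPS28 and MRPS36. Only the 250 bases before the start are printed, 5′ to 3′ on the gene's strand. Capitals mark matches, on either strand, to 3 strings. These are GCGC repeated after a gap of 2 bases of any kind, the palindrome bound by the factor NRF1, and AANATGGCG, bound by YY1. The remaining string, called the ETS string, is CCGGAAG, a form of the sites bound by GABPA and other ETS factors. Other forms of these sites were not searched for, so a window without a match can still hold them. The first 3 windows belong to the 3 largest falls in CCNB1-negative cells and the last 2 to the genes that did not pass the test. They lie at chr21:25607482-25607731 (minus strand), chr11:6683341-6683590 (minus), chr6:159789562-159789811 (plus), chr11:73787624-73787873 (plus) and chr2:74472681-74472930 (minus).
MRPL39: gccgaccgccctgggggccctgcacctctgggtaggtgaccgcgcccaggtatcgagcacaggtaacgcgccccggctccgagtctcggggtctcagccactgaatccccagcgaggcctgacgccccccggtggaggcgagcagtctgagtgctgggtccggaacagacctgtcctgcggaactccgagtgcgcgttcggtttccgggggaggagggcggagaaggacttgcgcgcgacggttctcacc
MRPL17: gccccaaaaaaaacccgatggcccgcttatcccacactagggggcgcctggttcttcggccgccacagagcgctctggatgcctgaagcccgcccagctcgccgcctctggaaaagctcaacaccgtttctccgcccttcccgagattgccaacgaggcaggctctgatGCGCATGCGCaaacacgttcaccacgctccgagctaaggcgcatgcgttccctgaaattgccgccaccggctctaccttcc
MRPL18: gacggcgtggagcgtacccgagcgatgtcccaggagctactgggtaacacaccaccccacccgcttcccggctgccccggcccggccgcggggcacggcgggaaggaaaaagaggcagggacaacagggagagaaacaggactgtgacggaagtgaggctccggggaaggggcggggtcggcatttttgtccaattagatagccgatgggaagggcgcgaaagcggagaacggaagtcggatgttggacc
MRPL48: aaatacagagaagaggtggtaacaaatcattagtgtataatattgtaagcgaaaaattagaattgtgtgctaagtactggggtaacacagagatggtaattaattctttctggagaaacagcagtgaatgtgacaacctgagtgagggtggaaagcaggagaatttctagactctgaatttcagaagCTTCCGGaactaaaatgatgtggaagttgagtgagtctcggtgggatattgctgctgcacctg
MRPL53: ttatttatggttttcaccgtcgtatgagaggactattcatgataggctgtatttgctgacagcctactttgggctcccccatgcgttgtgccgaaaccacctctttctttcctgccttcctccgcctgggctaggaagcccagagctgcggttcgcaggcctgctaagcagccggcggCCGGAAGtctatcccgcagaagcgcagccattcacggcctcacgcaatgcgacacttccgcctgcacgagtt

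The window of MRPL17 holds 1 NRF1 match, 81 to 72 bases before the start, and those of MRPL39 and MRPL18 hold no match to any of the 3 strings. The ETS string occurs once in each of the windows of MRPL48 and MRPL53, at 63 to 57 and 72 to 66 bases before the start, so the string was present at the 2 genes that did not pass the test and not at the 3 with the largest falls. Over whole 300-base windows, the ETS string was found in 29 of 69 members (42.03%), in 19.9% of the 9941 windows of genes tested and in 10.7% of all 27305 windows. The YY1 string was found in 18 members (26.1%), 7.21% of tested genes and 3.37% of all windows, and the NRF1 string in 9 members (13.0%), 16.1% and 8.78%. The E-box CACGTG, bound by MYC among others, was found in 6 members (8.70%), 10.3% of tested genes and 7.43% of all windows. Windows were also found for 62 cytosolic ribosomal protein genes. Of these, 33.9% held the ETS string, 12.9% the YY1 string, 11.3% the NRF1 string and 4.84% the E-box.

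Medians of members with and without a string were set side by side. With the ETS string the median log2 fold change in CCNB1-negative cells was -1.37 and without it -1.35, and in CCNB1-positive cells the medians were -0.86 and -0.95. For the YY1 string the medians were -1.32 and -1.35, then -0.87 and -0.94, and for the NRF1 string -1.44 and -1.35, then -0.83 and -0.94. The 6 members with an E-box had medians of -1.64 and -1.03, against -1.32 and -0.88 for the 63 without. These are descriptions with no test, and a match in a window is not a bound site.

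Some members start back to back with another gene. Within 1000 bases, 17 of 78 members (21.8%) had a protein-coding gene that starts on the opposite strand and runs the other way, against 11.7% of the 12164 protein-coding genes tested. Of these members, 16 had a neighbour that was tested itself. MRPL46 and MRPS11 are each other's neighbour, 63 bases apart, and fell by 1.48 and 1.02 on the log2 scale in CCNB1-negative cells. Of the other 14 neighbours, 8 were lower and 2 higher in CCNB1-negative cells, with a median of -0.77. Of all genes tested, 35.8% were lower and 38.2% higher in that fraction. In CCNB1-positive cells 5 of the neighbours were lower and 3 higher, with a median of -0.24. There 27.3% of all genes tested were lower and 5400 of 14219 higher. The difference of the neighbours from all genes was not tested. The largest falls of neighbours in CCNB1-negative cells were those of SKA3, 106 bases from MRPL57, and EME1, 13 bases from MRPL27. Their log2 fold changes were -3.34 and -3.09. TCP1, a subunit of the cytosolic chaperonin that starts 109 bases from MRPL18, fell by 2.74 in these cells. ZNF189, a zinc finger gene 233 bases from MRPL50, rose there with a log2 fold change of 2.13 while MRPL50 fell by 2.13.

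The mRNAs of factors known at promoters of nuclear genes for mitochondria moved in both directions. Of 10 such genes 9 were tested, and in each fraction 4 were lower and 2 higher. MYC was lower, at -2.27 (log2) for the CCNB1-negative fraction (335 and 304 RPM untreated, 73.0 and 60.4 RPM treated) and -1.85 in CCNB1-positive cells. PPRC1, a coactivator related to PGC-1α, was lower by 1.77 and 1.54. GABPB2, one of the genes for the partner subunit of GABPA, was higher (2.03 and 1.36), as was NRF1 (0.92 and 0.87), while GABPA itself stood between 11.9 and 13.0 RPM in all 8 libraries. PPARGC1A was below the filter.

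Most other genes of the mitochondrial translation system were lower too, and the difference of these lists from the members was not tested. For each list, the background is the share of all genes tested that is given above for the fraction. The 5 mitoribosome genes with other symbols, among them DAP3 and GADD45GIP1, were all lower in both fractions, with medians of -1.07 and -0.67. Of 29 assembly factors, which modify rRNA or help the subunits mature, 22 were lower and 4 higher in CCNB1-negative cells (median -0.84), and 21 lower and 3 higher in CCNB1-positive cells (median -0.75). The largest falls were those of MPV17L2 (-2.005 and -1.50) and MRM2, an rRNA methyltransferase (-1.86 and -1.08). The largest rises were those of METTL15, another rRNA methyltransferase (1.57 and 1.296), and NSUN4 (0.88 and 0.42).

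Translation factors and tRNA charging enzymes were mixed. Of 19 translation factors 12 were lower and 3 higher in CCNB1-negative cells, and 11 and 2 in CCNB1-positive cells. TSFM, an elongation factor, fell by 1.61 and 1.3, and MTRF1, a release factor relative, rose by 1.198 and 1.02. Of 20 genes of mitochondrial aminoacyl-tRNA synthesis 10 were lower and 3 higher in CCNB1-negative cells (median -0.37), and 11 and 2 in CCNB1-positive cells (median -0.46). MARS2, the methionyl-tRNA synthetase, had the largest fall of the list: 23.8 and 24.6 RPM untreated against 1.97 and 1.84 RPM treated in CCNB1-negative cells, a log2 fold change of -3.67. FARS2, the phenylalanyl-tRNA synthetase, rose by 1.28 and 0.97.

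**Figure D4:**
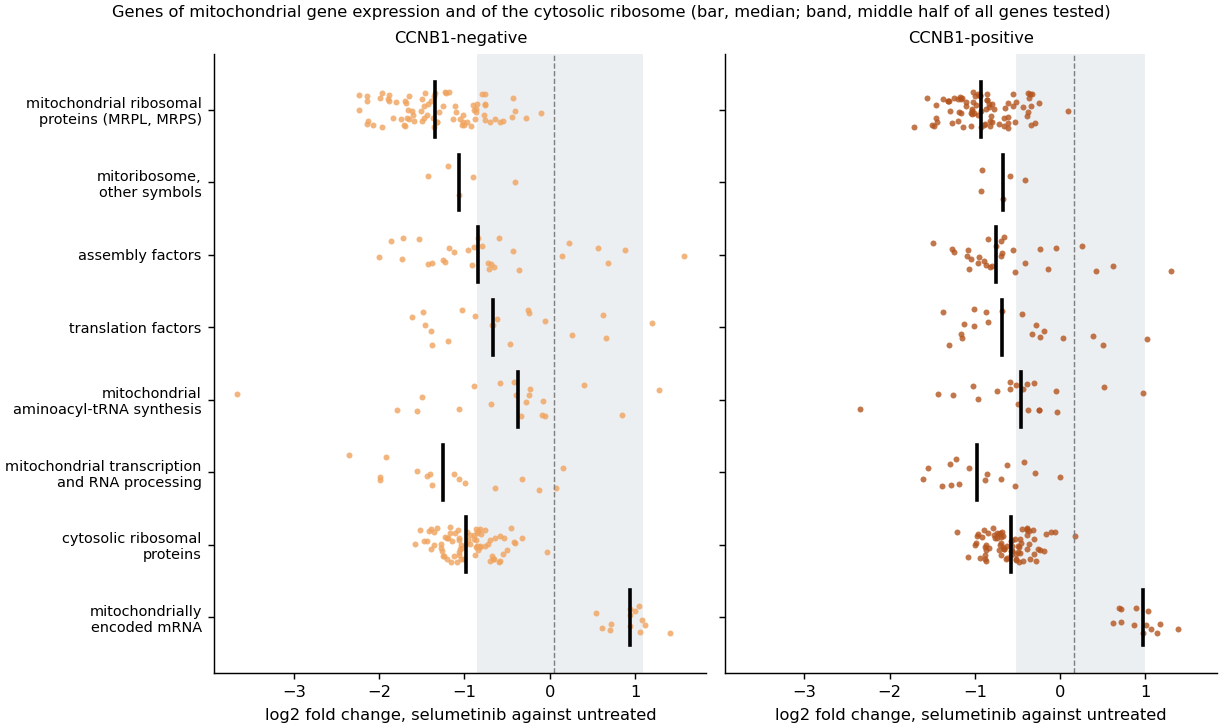
Log2 fold change of single genes (points), selumetinib against untreated, by gene list, in CCNB1-negative (left) and CCNB1-positive cells (right); black bars are list medians, the shaded band is the interquartile range of all 14219 genes tested and the dashed line their median. The 78 mitochondrial ribosomal protein genes have medians of -1.35 and -0.93, the cytosolic ones -0.98 and -0.57, and the 13 mitochondrially encoded mRNAs 0.95 and 0.97.

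Genes that transcribe and process mitochondrial RNA were mostly lower, while the mRNAs of the mitochondrial genome were not. Of 16 genes of mitochondrial transcription and RNA processing 12 were lower and 0 higher in CCNB1-negative cells (median -1.25), and 13 and 0 in CCNB1-positive cells (median -0.97). TFAM, which packages mitochondrial DNA and starts its transcription, fell by 2.35 and 1.55, and TRMT10C, part of mitochondrial RNase P, by 1.99 and 1.39. Of the 13 mitochondrially encoded mRNAs 9 were higher and 0 lower in CCNB1-negative cells (median 0.95), and 8 and 0 in CCNB1-positive cells (median 0.97). Among all genes tested, 38.2% were higher in CCNB1-negative cells and 5400 of 14219 in CCNB1-positive cells. MT-CO1, a subunit of cytochrome c oxidase, stood at 9965 and 6180 RPM untreated and at 22738 and 19064 RPM treated in the negative fraction, a log2 fold change of 1.41 (limma, adjusted p = 0.0057). With other scalings between 4 and 12 of the 13 were higher and 0 lower in each fraction. The mitochondrial ribosomal RNAs were not analysed here.

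Cytosolic ribosomal protein genes, the nearest comparison in function, were lower as well. Of 76, 72 were lower and 0 higher in CCNB1-negative cells (median -0.98), and 54 and 0 in CCNB1-positive cells (median -0.57). These counts depended on scaling more than those of the mitochondrial genes. With quantile normalization 33 of 76 were lower and 1 higher in CCNB1-negative cells, and 8 lower and 3 higher in CCNB1-positive cells, where the median relative to all genes turned from -0.74 to 0.04. Under the same normalization 73 and 69 of the 78 mitochondrial genes were lower and 0 higher. The difference between the lists was not tested.

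In untreated cells the 2 fractions did not differ detectably in mitoribosome genes. Between CCNB1-positive and CCNB1-negative cells 0 members were called in either direction, where 1.51% of all genes tested were lower and 1.36% higher. The unadjusted p was under 0.05 for 0 members, limma-voom on reads called 0, and the smallest adjusted p was 0.50. The median log2 difference was -0.04, and values ran from -0.26 to 0.25. In the same comparison all 8 genes of a G2 and mitosis list, CCNB1 among them, were higher in the positive fraction, with a median of 1.998.

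In selumetinib, the CCNB1-positive fraction had more mitoribosome mRNA than the negative. Of 78 members 22 were higher and 0 lower, where 13.8% of all genes tested were higher and 7.87% lower. The unadjusted p was under 0.05 for 44, and limma-voom on reads called 14. The summed level was 3633 and 3873 RPM in the positive fraction against 3105 and 2759 RPM in the negative, a log2 difference of 0.36, or 1.28-fold. The median log2 difference was 0.40 over members and 0.02 over all genes. Values were above 0 for 73 members and for 51.8% of all genes tested. Both positive libraries lay above both negative ones for 65 members, where 33.0% of all genes did so. Same-numbered libraries of the treated fractions deviated together (correlation 0.43), and with a block of fraction pairs 52 members were higher. The count rested on single libraries: it was 35 without CCNB1-negative replicate 1, 2 without CCNB1-negative replicate 2, 5 without CCNB1-positive replicate 1 and 4 without CCNB1-positive replicate 2. The G2 and mitosis genes differed far more in the same direction, with a median of 4.59, and their part in the result was not tested.

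The largest differences between treated fractions were those of MRPL51 and MRPL18. MRPL51, a mitochondria-specific large subunit protein (chr12:6491886-6493841, minus strand), stood at 73.6 and 45.9 RPM in CCNB1-negative and at 133 and 130 RPM in CCNB1-positive cells. The log2 difference was 1.18 ± 0.20 (limma, adjusted p = 0.0011). MRPL51 shares exon sequence on opposite strands with NCAPD2, a condensin subunit gene that stood at 31.1 and 30.2 RPM in the negative and at 156 and 150 RPM in the positive fraction. How strand was used in counting is not given in the sources used here, and the part of NCAPD2 reads in the value of MRPL51 was not tested. MRPL18 has no such overlap: it stood at 20.7 and 18.6 RPM against 37.3 and 38.98 RPM, a log2 difference of 0.96 ± 0.15 (limma, adjusted p = 0.00059).

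MRPL49, MRPL39 and MRPL50 followed. MRPL49 stood at 29.0 and 18.5 RPM in the negative and 43.9 and 34.2 RPM in the positive fraction, a log2 difference of 0.74 ± 0.21. MRPL39 stood at 12.3 and 8.36 RPM against 15.95 and 17.5 RPM (0.72 ± 0.21), and MRPL50 at 12.9 and 9.36 RPM against 17.83 and 17.85 RPM (0.70 ± 0.20). Groups did not overlap for any of the 3, and their adjusted p, by limma, lay between 0.023 and 0.026. Each of these 3 calls was lost without CCNB1-negative replicate 2, where the log2 differences became 0.42 (MRPL49), 0.44 (MRPL39) and 0.46 (MRPL50). Over all 19 alternatives, the call of MRPL49 was lost in 3, and those of MRPL39 and MRPL50 in 5 each. Of the 22 members called higher, 6 share exons with a gene on the opposite strand, and 15 have no exon overlap with another gene of the table.

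**Figure D5:**
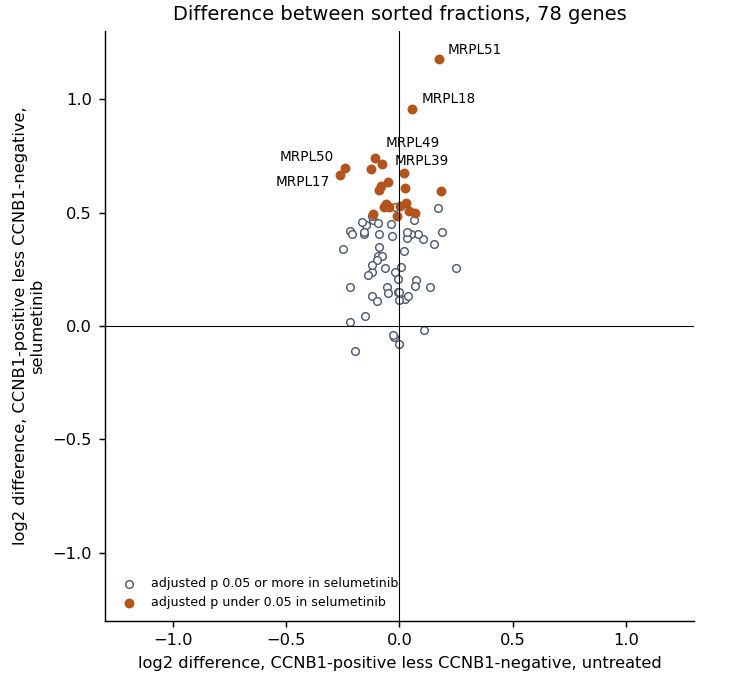
Log2 difference of the CCNB1-positive from the CCNB1-negative fraction, 1 point for each of the 78 genes, untreated on the horizontal axis and selumetinib on the vertical axis, with filled points for the 22 genes past the test in selumetinib. Points spread between -0.26 and 0.25 horizontally and between -0.11 and 1.18 vertically.

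The difference of the selumetinib responses between fractions was tested for each gene as an interaction. For 74 of 78 members the fall was smaller in CCNB1-positive cells, and 59.2% of all genes tested had a difference above 0. The median of the difference was 0.39 on the log2 scale, against 0.11 for all genes. Past the test were 2 members, MRPL17 and MRPL18, where 4.99% of all genes tested were higher and 0.345% lower, with 0 members lower. The unadjusted p was under 0.05 for 29, limma-voom on reads called 2, and with a block of fraction pairs 36 members passed. For MRPL17 the response was -2.23 in the negative and -1.31 in the positive fraction, a difference of 0.92 ± 0.23 (limma, adjusted p = 0.028). For MRPL18 the responses were -2.14 and -1.24, a difference of 0.90 ± 0.21 (limma, adjusted p = 0.024). Leaving out 1 library gave between 0 and 15 members past the test, 15 without treated CCNB1-negative replicate 1 and 0 without treated CCNB1-negative replicate 2. Both responses use their own untreated and treated libraries, but each of the 2 fraction differences shares libraries with them, so the 4 comparisons are not independent of each other.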

How the data were processed

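Gene expression was measured by polyA-selected mRNA-seq in 8 libraries of sorted HT29 cells, in 4 groups of 2. Reads were processed by the authors with Trim Galore 0.5.0 and HISAT2 2.1.0 (GRCh38), genes were quantified in SeqMonk, and the deposited values are log2 read counts scaled to total reads, with genes without reads set at 0.9 reads. The annotation release and the use of strand are not given in the sources used here. Whole reads could be recovered from the values (tolerance 0.01 reads), and RPM (reads-per-million) values are relative to the authors' scaling. With no molecular identifiers, depth reflects reads and not molecules.

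The log2 values were tested with limma 3.58.1 (R 4.3.3; trend, model of all 4 groups, two-sided) over the 14219 genes whose mean reached 1 RPM, with Benjamini-Hochberg adjustment and a threshold of 0.05. The SE is that of the limma coefficient. An exact permutation test of 2 against 2 libraries cannot go below p = 0.333, so none was used. Tables were handled with Python 3.11.15, and lengths and exon overlap came from GENCODE 44. The procedure was tested on simulated data for the CCNB1-negative response. It recovered 100% of 4-fold and 74.0% of 2-fold changes, with 15 false calls among 185. Simulated libraries were drawn independently with the same dispersion for every gene, and 195 of the 14858 genes run were changed. In the data far more genes were called and same-numbered libraries deviated together, so these rates need not hold there. Members and gene lists were chosen with earlier results of these data known. Genes were named by rule: the 8 largest falls per response, the 5 largest differences between fractions, the 3 highest and lowest per length, members with other known roles, and up to 4 genes of each list. Members that did not pass the test, CCNB1, KRT8, KRT18, CD68, COL1A1, MALAT1, and overlapping or neighbouring genes were named after their values were seen. Alternatives were other scalings, filters, a pseudocount of 0.1 RPM, limma-voom, a smaller model, a replicate block, a block of fraction pairs, a threshold of 0.01 and leaving out each library.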

Additional observations from a re-analysis of the deposited data

Results flagged for a closer look

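The selumetinib response was not the same in the 2 fractions, by the interaction test in limma with Benjamini-Hochberg adjustment, for 5 of the genes named. Over all genes tested 4.99% were higher by this test, and 2 of the 78 members were, a share not above that of all genes. For MRPL17 the difference of the log2 fold changes was 0.92 (adjusted p = 0.028) and for MRPL18 it was 0.90 (adjusted p = 0.024), both with the smaller fall in CCNB1-positive cells. The rRNA methyltransferase gene MRM2 differed by 0.79 (adjusted p = 0.037) and the methionyl-tRNA synthetase gene MARS2 by 1.33 (adjusted p = 0.015), in the same direction. MARS2 was near the 1 RPM of the filter in treated CCNB1-negative libraries. CCNB1, whose protein was the basis of the sort, differed by 2.99 (adjusted p = 1.8e-05). MRPL17 lost its call in 6 of 18 alternatives and MRPL18 in 7 of 18, with adjusted p up to 0.14 for each. Lost calls were not counted for MRM2, MARS2 and CCNB1.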

How the results depend on the processing

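No result for the members changed direction past the test. Among the cytosolic ribosomal protein genes, some were called higher with quantile normalization, as given above. In CCNB1-negative cells the median log2 fold change of the members moved from -1.35 to -1.20 with quantile normalization, -1.03 with scaling to nuclear reads without MALAT1 and -1.20 with limma-voom, and leaving out 1 library gave -1.46 to -1.21. In CCNB1-positive cells it moved from -0.93 to -1.10 with median-of-ratios scaling and -0.68 with nuclear scaling. The log2 difference of the summed level became -0.98 and -0.66 with nuclear scaling. In selumetinib, the count of members higher in the CCNB1-positive fraction, 22, became 14 with median-of-ratios scaling, 13 with nuclear scaling, 14 with no filter, 14 with limma-voom, 52 with a block of fraction pairs, 2 at a threshold of 0.01 and 2 to 35 without 1 library, and its median 0.26 to 0.49. The interaction count, 2, became 0 with median-of-ratios scaling, 36 with the block of fraction pairs, 0 at a threshold of 0.01 and 0 to 15 without 1 library. The cause of these moves was not tested.

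Libraries with the same number deviated together between fractions of 1 treatment (correlation 0.35 untreated, 0.43 treated) and not between treatments (-0.09 to 0.08). The labels do not say what a number marks, so whether the fractions of 1 number came from 1 culture is not known. With a replicate block 76 and 72 members were lower in the CCNB1-negative and CCNB1-positive responses, 0 differed between untreated fractions, 28 were higher between treated fractions and 2 passed the interaction test. With 2 libraries a group, 2-fold changes were recovered less often than 4-fold ones in simulated data.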
